A study of Mus musculus with 6 samples.

Results

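The genes described here are those of zinc-finger transcription factors that the study's table of changed genes names for the neocortex of mice without KHSRP. They were taken by symbol, as every probe of that table whose gene name begins with Zfp, Zkscan, Zscan, Zbtb, Znf, Klf or Zic, apart from Zscan4e. The rule found 43 probes of 42 genes among the 1788 probes of 1714 genes that the table names and the 60915 probes on each array. Of these, 36 probes of 35 genes stood in the block of mRNAs listed as higher in the knockout and 7 probes of 7 genes in the block listed as lower. The blocks held 1522 and 266 probes, so that members made up 2.37% of the first and 2.63% of the second. The lower block is short beside the 3405 probes of any kind that passed the thresholds used below as lower, against 4484 as higher. Zinc-finger genes lower in the knockout that the lower block does not list are not described. The blocks also differ in the smallest change they hold. Outside the members, log2 fold changes began at 0.27 in the higher block and at -0.64 in the lower block. Sizes of change are therefore not compared between the blocks. By prefix there were 35 Zfp genes, 6 Zbtb genes and Zkscan1, and no Klf, Zic or Znf gene. Because the table was selected for a difference between the genotypes on these same arrays, the direction and size of each change are given as a description and carry no test.

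RNA from the neocortex of adult males was hybridised to 1-colour Agilent arrays, from 3 Khsrp-/- mice (KHSRP-KO) and 3 wild type (WT) littermates, and 1 array per mouse. The knockout is constitutive, so that neurons, glia and vascular cells all lack KHSRP, and the line was crossed onto C57Bl/6. The tissue was taken whole, and in such bulk RNA fewer cells of a type and less RNA per cell cannot be told apart. KHSRP is a KH-domain protein that binds AU-rich elements in mRNAs and promotes their decay.

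A C2H2 zinc finger is a short fold held by a zinc ion between a pair of cysteines and a pair of histidines, and arrays of such fingers read DNA sequence. Many mammalian zinc-finger proteins carry a KRAB domain, which recruits the co-repressor Trim28 and through it histone methylation, and their best known targets are retroviral and transposon sequences. Others carry a BTB domain, through which they dimerise and bring in co-repressors such as Ncor1, or a SCAN domain for pairing with one another. Zinc-finger genes of the KRAB type lie in clusters of near-identical neighbours, so that probes for one gene can also pick up a close relative.

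All values below are log2 processed intensities from which the 75th percentile of the array was subtracted, so that 0 is the level of that percentile. They compare one probe between arrays and not one probe with another. The 36 probes of the higher block were well above background on all 6 arrays, as were 4 of the 7 in the lower block. On each array 71.3% to 82.6% of spots were well above background, and precision is set by the small number of arrays. Arrays with identical scan times were taken to share a slide, which the labels do not state, and this grouping is what is meant by slide throughout. It gave 3 slides, with WT 1 and WT 2 on the first, KO 2 and KO 3 on the second, and KO 1 with WT 3 on the third. By this grouping the third slide is the only one with both genotypes. No probe for Khsrp was named in the tables used, so the genotype was not checked on the arrays. Among 24 markers of brain cell types, 3 were named, and the neuronal Snap25, the astrocytic Slc1a2 and the glial Fabp7 were well above background on every array.

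The promoters of 34 of the 42 genes were found in RefSeq (GRCm38.p6) as windows of 300 bases, 250 before and 50 after the annotated start. The promoters of Zbtbd6, Zfp191, Zfp248, Zfp286, Zfp354a, Zfp40, Zfp568 and Zfp575 had no entry. Of the 34, 4 are printed, those of the genes with the largest change in each direction among the genes with an entry (Zfp708 and Zfp26) and the only 2 that held ACTACAA (Zfp277, listed higher, and Zfp454, listed lower). They run 5′ to 3′ on the strand of the gene, and capitals mark every match, on either strand, to 1 of 4 motifs. The TATA box was searched for as TATAAA. The CCAAT box was searched for by the letters in its name. The GC box, to which Sp1 binds, was searched for as GGGCGG. The last motif was ACTACAA, which is part of the promoter element bound by ZNF143. No motif contains another. The window of Zfp708 is chr13:67097927-67098226 (minus strand), that of Zfp277 is chr12:40445741-40446040 (minus strand), that of Zfp26 is chr9:20460111-20460410 (minus strand) and that of Zfp454 is chr11:50887461-50887760 (minus strand).
Zfp708: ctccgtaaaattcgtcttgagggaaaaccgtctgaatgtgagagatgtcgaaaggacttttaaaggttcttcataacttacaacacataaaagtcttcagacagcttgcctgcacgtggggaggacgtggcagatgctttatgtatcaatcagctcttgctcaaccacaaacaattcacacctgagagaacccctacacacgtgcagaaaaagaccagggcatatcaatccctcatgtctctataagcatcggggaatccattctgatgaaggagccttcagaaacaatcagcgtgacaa
Zfp277: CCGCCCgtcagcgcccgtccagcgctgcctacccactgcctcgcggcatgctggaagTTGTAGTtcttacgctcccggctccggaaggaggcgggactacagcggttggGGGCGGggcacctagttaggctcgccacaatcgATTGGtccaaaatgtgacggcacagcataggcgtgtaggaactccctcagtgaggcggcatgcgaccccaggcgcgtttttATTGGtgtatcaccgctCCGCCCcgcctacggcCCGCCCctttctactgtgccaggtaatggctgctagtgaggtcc
Zfp26: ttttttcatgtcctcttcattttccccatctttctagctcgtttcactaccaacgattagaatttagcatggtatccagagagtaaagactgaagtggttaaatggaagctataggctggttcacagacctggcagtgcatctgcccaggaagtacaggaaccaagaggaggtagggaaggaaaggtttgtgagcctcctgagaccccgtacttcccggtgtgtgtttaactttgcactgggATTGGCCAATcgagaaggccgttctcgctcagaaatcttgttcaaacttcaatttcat
Zfp454: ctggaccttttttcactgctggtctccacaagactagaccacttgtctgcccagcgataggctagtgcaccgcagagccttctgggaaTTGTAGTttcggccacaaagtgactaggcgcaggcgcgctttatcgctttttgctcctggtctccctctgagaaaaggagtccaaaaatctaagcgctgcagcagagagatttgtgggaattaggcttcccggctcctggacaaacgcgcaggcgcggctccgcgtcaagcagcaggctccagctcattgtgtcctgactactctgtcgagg

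The window of Zfp708 held none of the 4 motifs, and that of Zfp26 held 2 CCAAT boxes and no other match. That of Zfp277 held 4 GC boxes, 2 CCAAT boxes and 1 ACTACAA, and that of Zfp454 held 1 ACTACAA and no other match. Across the 34 promoters a GC box occurred in 16 (47.1%), a CCAAT box in 16 (47.1%), a TATA box in 2 (5.88%) and ACTACAA in 2 (5.88%). The same letters occurred in 46.8%, 47.8%, 6.65% and 5.67% of the 406 promoters of all annotated genes with these symbol prefixes. Over all 27025 genes with an entry the shares were 35.9%, 37.9%, 14.2% and 3.45%. The members' promoters therefore held the motifs about as often as those of their gene family at large, with more GC and CCAAT boxes and fewer TATA boxes than promoters in general. The median number of CpG dinucleotides in the window was 17.5 in the members, 14 in the family and 7 over all genes. These are matches of letters and not measured sites.

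**Figure D1:**
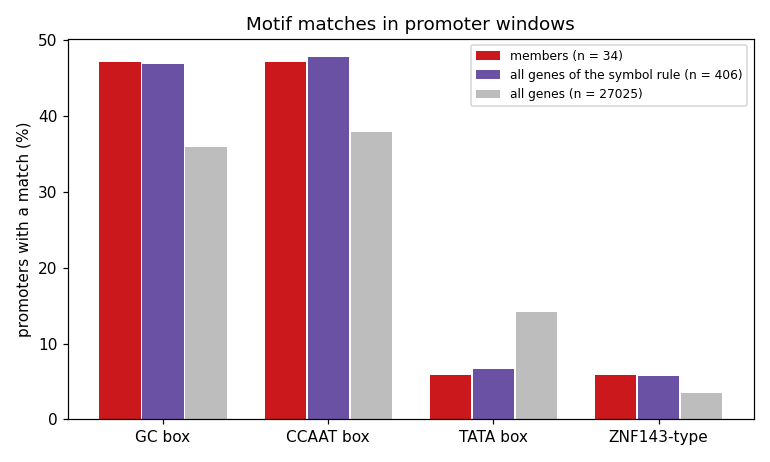
Share of promoter windows (y axis, percent) that held each motif on either strand, for the 34 members with an entry, the 406 genes of the same symbol prefixes and all 27025 genes. Members and family lie within 1 percentage point of each other for every motif, at 47.1% and 46.8% for the GC box.

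Every one of the 36 higher-block probes had a higher mean in the Khsrp-/- arrays, and the median log2 fold change was 0.58 (about 1.5-fold), ranging from 0.35 to 1.02, or 1.28-fold to 2.02-fold. Of these, 13 lay between 0.35 and 0.5, 12 between 0.5 and 0.75 and 11 at 0.75 or above. By name the 30 Zfp probes had a median of 0.57 and the 5 Zbtb probes a median of 0.76, or 0.63 over the 4 without Zbtbd6, which is described below as no zinc-finger gene. The study's volcano plot marks thresholds on the p and the fold, and its methods name an adjusted p, so calls were counted both ways. At a p under 0.05 before adjustment together with a log2 difference of 0.32 or more, 34 of the 36 passed, beside 9.26% of all 48436 probes tested that passed as higher, and nothing is read from this count because the table was chosen on the same contrast. The 3 knockout arrays were all above the 3 wild type arrays for 34 of the 36 probes, against 12.4% of all probes. After Benjamini-Hochberg adjustment over all probes in limma no member passed, beside 0.095% of all probes and 41 members at an unadjusted p under 0.05. The methods' t-test also gave 0 after adjustment, whereas 1 member (Zfp26) passed with trend and robust variances and 9 passed without KO 1. Without KO 1 more probes were called in general, 13.7% of all probes as higher and 13.2% as lower at the unadjusted thresholds.

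The rest of the higher block, 1444 probes, had a median log2 fold change of 0.56, so that the zinc-finger members differed about as far as the other mRNAs of the block. The median over all probes tested was -0.000559. The 2 that did not pass were Zfp770, with a log2 fold change of 0.44, and Zfp334, with 0.38, which reached the fold threshold and missed only that on p. Just inside on p lay Zfp157, with 0.35, and Zbtb1, with 0.42. The count of 34 was 9 without scaling between arrays, 5 with the slide as a fixed block, 17 without WT 1 and 19 without WT 2. The share of all probes called as higher was 2.52%, 3.65%, 5.2% and 5.68% in the same order, so that fewer probes were called in general. Without scaling the share of all probes called as lower was 15%, against 7.03% as scaled.

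**Figure D2:**
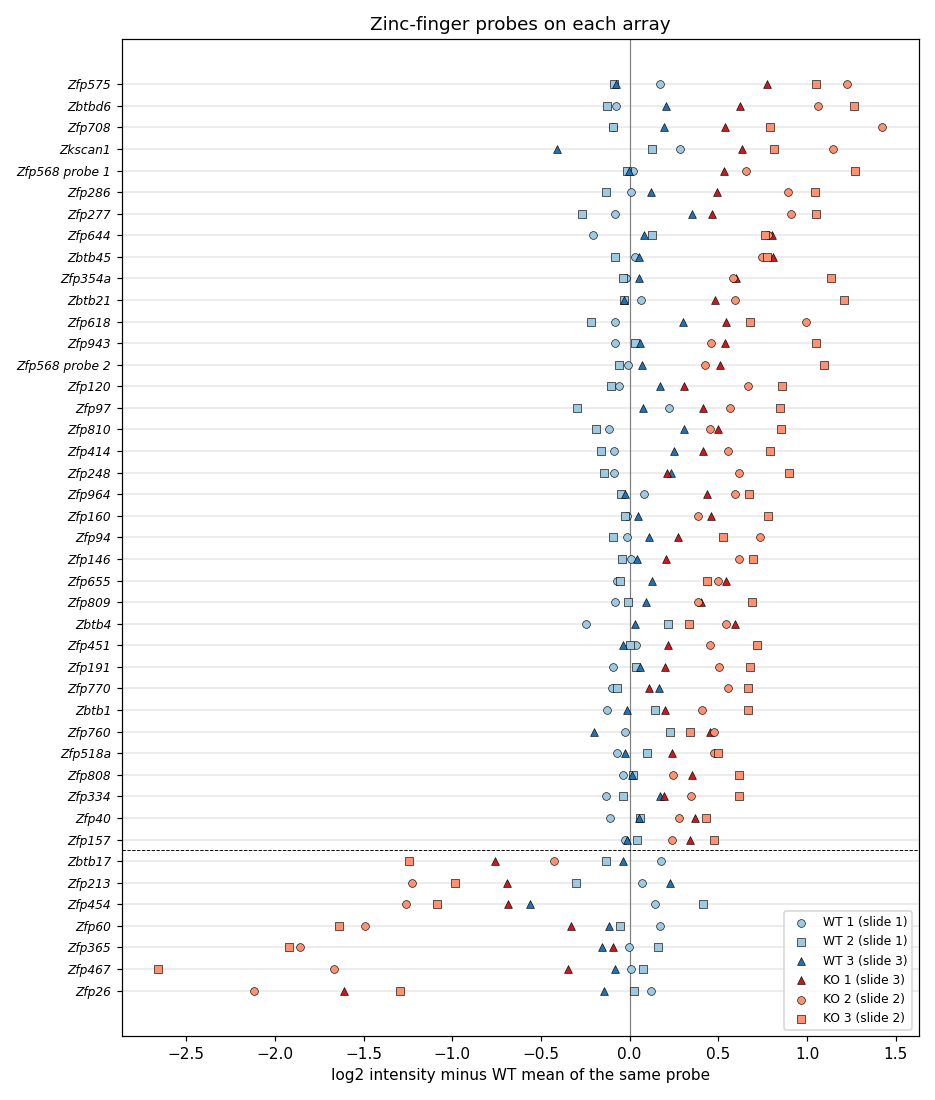
Each of the 43 probes on the 6 arrays, as log2 intensity minus the mean of the 3 WT arrays for the same probe (x axis), with higher-block members above the dashed line and lower-block members below it. Colour gives the genotype and shade and shape the array, with the shared slide in dark triangles. KO 3 was the highest knockout array for 26 of the 36 higher-block probes, and KO 1 lay nearest to WT for 22.

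Zfp575 had the largest difference of the higher block. Its level was -0.13, 0.32 and 0.15 on KO 1, 2 and 3 and -0.74, -0.99 and -0.98 on WT 1, 2 and 3, a log2 fold change of 1.02 ± 0.18 (SE, n = 3 arrays per genotype). The lowest knockout array stood above the highest wild type array by 0.60. Zbtbd6, now named Kbtbd6, came next, and it encodes an adaptor of the Cul3 ubiquitin ligase with a BTB and a kelch domain, described without a zinc finger although its array symbol matched the rule. It measured -0.11, 0.33 and 0.53 in the knockouts and -0.81, -0.85 and -0.52 in wild type, a log2 fold change of 0.98 ± 0.21. Its groups did not overlap, and KO 1 was the lowest of the knockout arrays.

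Among the next largest differences were those of KRAB zinc-finger genes. Zfp708, whose protein binds a class of retroviral element, measured -3.56, -2.68 and -3.31 in the knockouts and -4.20, -4.20 and -3.91 in wild type, a log2 fold change of 0.92 ± 0.25. KO 2 was its highest array and WT 1 and WT 2 its lowest, with no overlap. Zkscan1, which carries a SCAN and a KRAB domain, measured -2.86, -2.34 and -2.68 against -3.21, -3.37 and -3.90, a log2 fold change of 0.86 ± 0.23. Its wild type values were spread more widely than its knockout values, and WT 3 was the lowest array.

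Zfp568, a KRAB protein that represses a placental transcript of Igf2, was the one gene with a pair of probes. Probe 1 measured -0.03, 0.09 and 0.71 in the knockouts and -0.55, -0.58 and -0.57 in wild type, a log2 fold change of 0.82 ± 0.22. Probe 2 measured -0.12, -0.21 and 0.47 against -0.64, -0.69 and -0.56, a log2 fold change of 0.68 ± 0.21. The probes gave like differences, with KO 3 above the other knockout arrays and the 3 wild type arrays close together on both. Zfp286 measured 2.20, 2.61 and 2.76 against 1.72, 1.58 and 1.83, a log2 fold change of 0.81 ± 0.19, again without overlap.

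Zfp277, a partner of the Polycomb protein Bmi1, measured 3.47, 3.91 and 4.06 in the knockouts and 2.92, 2.74 and 3.36 in wild type, a log2 fold change of 0.81 ± 0.23. On this probe WT 3 came close to KO 1, and the gap between the groups was only 0.11. Zfp644, whose protein joins the histone methyltransferases G9a and GLP, measured -0.47, -0.49 and -0.51 against -1.48, -1.14 and -1.19, a log2 fold change of 0.78 ± 0.16. The 3 knockout arrays lay within a narrow band, and all the spread was among the wild type arrays. Zbtb45 had a log2 fold change of 0.78 ± 0.14 and a gap of 0.69 between the groups.

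The remaining higher-block members filled the range below these. Of the BTB genes, Zbtb21 had a log2 fold change of 0.76, Zbtb4, whose protein binds methylated DNA, of 0.49, and Zbtb1, a gene needed for lymphoid development, of 0.42. Of the KRAB genes, Zfp354a (Kid1) had 0.77 and Zfp809, which silences retroviral DNA in embryonic stem cells, had 0.49. Zfp618, whose product binds the DNA methylation reader UHRF2, had 0.74, and Zfp451, a SUMO ligase, had 0.46. Zfp191 (Zfp24), a gene that oligodendrocytes need for myelination, had 0.46, and Zfp146, a protein made up almost wholly of zinc fingers, had 0.51. The others were Zfp120 at 0.61, Zfp810 at 0.60, Zfp964 at 0.57, Zfp94 at 0.51, Zfp655 at 0.49, Zfp518a at 0.41 and Zfp808 at 0.40. On all 16 of these probes the lowest knockout array was above the highest wild type array. The same held for 12.4% of all probes and for 1386 of the 1444 higher-block probes outside the members.

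The size of several of these differences depended on the background correction. With normexp correction Zbtb45 had a log2 fold change of 0.21 in place of 0.78, Zkscan1 of 0.28 in place of 0.86, Zfp618 of 0.30 in place of 0.74 and Zfp964 of 0.17 in place of 0.57, and none of the 4 then passed the unadjusted thresholds. In all, 10 of the 34 higher-block probes that passed no longer did, namely these 4, Zbtb1, Zfp97, Zfp655, Zfp760, Zfp157 and Zfp40, and Zfp770 and Zfp334 did pass. The share of all probes called as higher was 8.19% with this alternative, against 9.26% in the main fit. Zfp708, at 0.36 in place of 0.92, Zfp943, at 0.40 in place of 0.68, and Zfp160, at 0.35 in place of 0.54, still passed with a smaller difference.

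The smallest changes were those of Zfp157, Zfp40 and Zfp334. Zfp157 measured -0.30, -0.41 and -0.17 in the knockouts and -0.67, -0.60 and -0.66 in wild type, a log2 fold change of 0.35 ± 0.14. Zfp334 measured 3.02, 3.17 and 3.44 against 2.69, 2.79 and 3.00, a log2 fold change of 0.38 ± 0.18. The groups were apart by 0.20 on Zfp157 and by no more than 0.02 on Zfp334, where KO 1 and WT 3 nearly met.

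For a pair of higher-block members the genotypes overlapped. Zfp248 measured 3.72, 4.13 and 4.41 in the knockouts and 3.43, 3.37 and 3.75 in wild type, a log2 fold change of 0.57 ± 0.22. Zfp770 measured 4.34, 4.79 and 4.90 against 4.14, 4.16 and 4.40, a log2 fold change of 0.44 ± 0.19. In both, KO 1 lay just below WT 3, the array it shared a slide with, and KO 2 and KO 3 stood above every wild type array.

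The members lay on 17 chromosomes. Chromosome 17, which also carries Khsrp, held 7 of the 42 (16.7%), beside 10.4% of the 491 annotated genes with these prefixes, and chromosome 7 held 6 (14.3%), beside 21.4%. No member was close to Khsrp, since at least 422 protein-coding genes lay between it and the nearest, Zfp414. The 6 higher-block members on chromosome 17 had a median log2 fold change of 0.56. All 6 were above wild type without overlap, as were 12.4% of all probes and 1386 of the 1444 higher-block probes outside the members. Zfp943 measured -2.00, -2.08 and -1.49 in the knockouts and -2.62, -2.51 and -2.48 in wild type, a log2 fold change of 0.68 ± 0.20. Zfp97 measured -3.50, -3.34 and -3.06 against -3.69, -4.20 and -3.83, a log2 fold change of 0.61 ± 0.20. KO 3 was the highest array for both. Zfp414 measured 5.16, 5.30 and 5.54 against 4.66, 4.58 and 4.99, a log2 fold change of 0.59 ± 0.18, and WT 3 was the highest of its wild type arrays. Zfp160 measured -1.72, -1.80 and -1.40 against -2.20, -2.21 and -2.14, a log2 fold change of 0.54 ± 0.16, with wild type values close together. Zfp760 measured -1.74, -1.71 and -1.85 against -2.21, -1.96 and -2.39, a log2 fold change of 0.42 ± 0.17, and Zfp40 measured 0.09, -0.01 and 0.15 against -0.39, -0.22 and -0.23, a log2 fold change of 0.36 ± 0.14. The knockout array nearest to wild type was KO 1 on Zfp97 and Zfp414, KO 2 on Zfp943, Zfp160 and Zfp40, and KO 3 on Zfp760.

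Some members were near neighbours in the genome. Zfp809 and Zfp810 on chromosome 9 had 1 protein-coding gene between them, Zfp760 and Zfp943 on chromosome 17 had 4, and Zfp568 and Zfp146 on chromosome 7 had 5, and within each of these pairs both were listed as higher. Zfp40 and Zfp213 on chromosome 17 had 4 between them and were listed in opposite directions, as were Zfp454 and Zfp354a on chromosome 11 with 8 between them. The probes were not checked for matches to neighbouring genes.

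The 7 lower-block members had lower means in Khsrp-/- neocortex, and the median log2 fold change was -1.15, ranging from -0.81 to -1.67, or 1.75-fold to 3.19-fold lower. The rest of the lower block, 259 probes, had a median of -1.07 and held no change nearer to 0 than -0.64. All 7 passed the unadjusted thresholds, beside 7.03% of all probes tested that passed as lower, and 6 of the 7 had every knockout array below every wild type array, beside 9.9% of all probes. As above, these counts follow from how the table was chosen. The count of 7 was 2 with the slide as a fixed block, and 4 by the methods' t-test or with only probes above background on all 6 arrays. The share of all probes called as lower was 2.28%, 3.75% and 7.72% in the same order, against 7.03%. The last filter leaves only 4 of the 7 members.

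Zfp26, a C2H2 zinc-finger gene, had the lowest log2 fold change of the members as processed here. It measured -3.98, -4.48 and -3.66 in the knockouts and -2.25, -2.34 and -2.51 in wild type, a log2 fold change of -1.67 ± 0.23. The wild type arrays lay close together, all 3 knockout arrays were more than 1 log2 unit below them (a gap of 1.15), and 2 of the 3 knockout arrays were well above background. Its promoter, printed above, held 7 CpG dinucleotides, the fewest of the lower block. The order at the top of the lower block changed with the processing. With normexp correction Zfp26 was at -0.80, Zfp467 at -1.52 and Zfp365 at -1.32, and without KO 1 they were at -1.71, -2.16 and -1.89.

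Zfp213 measured -3.88, -4.41 and -4.17 in the knockouts and -3.11, -3.49 and -2.96 in wild type, a log2 fold change of -0.97 ± 0.21. Zbtb17, which encodes the Myc partner Miz1, measured -3.00, -2.67 and -3.48 against -2.06, -2.38 and -2.28, a log2 fold change of -0.81 ± 0.23. For both genes KO 1 was clearly below the wild type arrays along with KO 2 and KO 3, and the groups did not overlap. As with Zfp26, 2 of the 3 knockout arrays were well above background for Zfp213, while Zbtb17 was above background throughout. With normexp correction Zfp213 was at -0.35 and Zbtb17 at -0.40, and both still passed the unadjusted thresholds.

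In the other 4 lower-block members KO 1 lay close to the nearest wild type array. Zfp467, known for favouring fat over bone in precursor cells, measured 7.04, 5.72 and 4.73 in the knockouts and 7.40, 7.46 and 7.30 in wild type, a log2 fold change of -1.56 ± 0.52. KO 3 was more than 2 log2 units below every wild type array, whereas KO 1 was only 0.26 below the lowest of them. Zfp365, whose product binds DISC1 and is made by oligodendrocytes as they mature, measured 6.15, 4.39 and 4.32 against 6.24, 6.40 and 6.08, a log2 fold change of -1.29 ± 0.47. Its KO 1 value lay within the wild type range and above WT 3, and the lower mean came from KO 2 and KO 3.

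Zfp60 measured -0.94, -2.10 and -2.25 in the knockouts and -0.44, -0.66 and -0.73 in wild type, a log2 fold change of -1.15 ± 0.34. Zfp454 measured -3.58, -4.15 and -3.98 against -2.75, -2.48 and -3.45, a log2 fold change of -1.01 ± 0.29. On Zfp60 KO 1 stood apart from the other knockout arrays, and on Zfp454 WT 3 stood apart from the other wild type arrays and was 0.12 above KO 1. Of the knockout arrays for Zfp454, 2 of 3 were well above background, and with normexp correction its log2 fold change was -0.38.

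**Figure D3:**
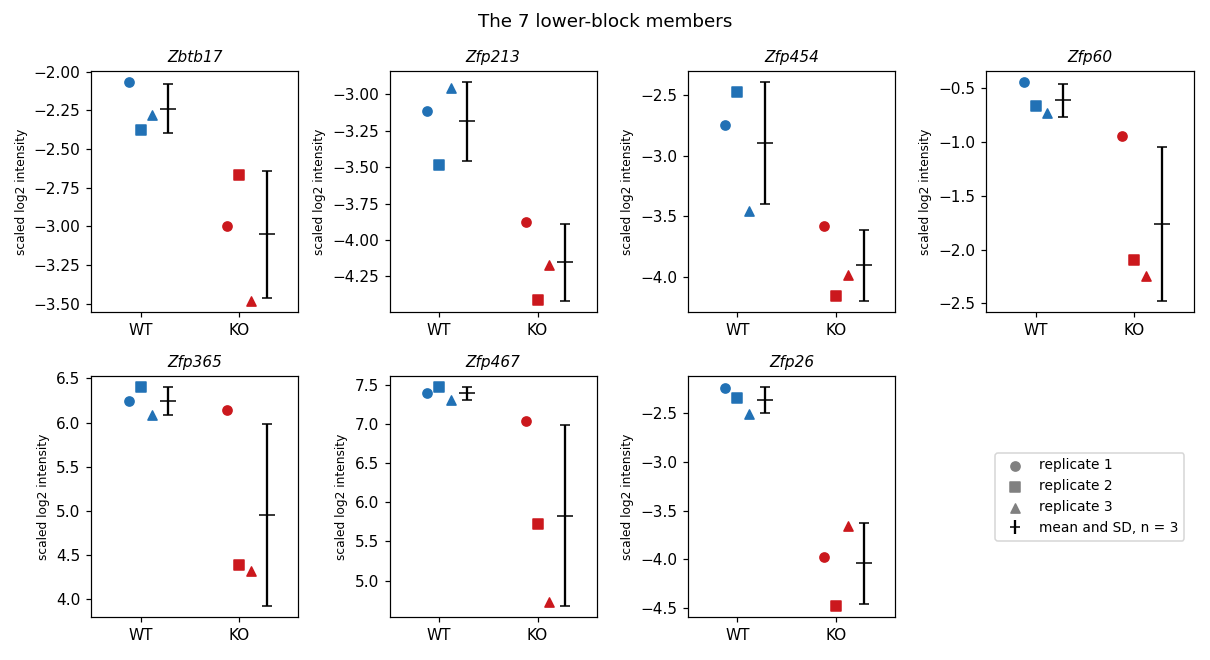
The 7 lower-block members on each array (y axis, log2 intensity minus the 75th percentile of the array, with a scale of its own in each panel), WT in blue and KO in red, by replicate, with the mean and SD of 3 arrays. On every gene but Zfp365 all 3 knockout arrays lie below the WT arrays, and the KO 1 point of Zfp365 lies among the WT points.

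The arrays did not contribute equally to these differences. Over the 36 higher-block probes the median distance from the wild type mean was 0.46 on KO 1, 0.56 on KO 2 and 0.77 on KO 3. Over the 7 lower-block probes it was -0.69 on KO 1, -1.49 on KO 2 and -1.29 on KO 3. KO 1 was thus the array closest to wild type in both directions. This was not particular to the members. The rest of the higher block gave 0.40, 0.59 and 0.72 on KO 1, KO 2 and KO 3. The rest of the lower block gave -0.59, -1.08 and -1.57 on the same arrays. WT 3, which shared the slide of KO 1, was the highest wild type array for 21 of the 36 higher-block probes and the lowest for 5 of the 7 lower-block probes. The median SD among knockout arrays was 0.23 in the higher block and 0.42 in the lower block, beside 0.12 and 0.16 among wild type arrays.

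Within the shared slide, the difference of KO 1 and WT 3 had a median of 0.34 over the higher-block probes, against 0.58 over all arrays, and 34 of the 36 were higher in KO 1. The rest of the higher block had a median of 0.33 on that slide, with 1393 of its 1444 probes higher in KO 1. Over all 48436 probes tested 23960 were higher in KO 1. For 20 of the 36 the difference on the shared slide reached the log2 threshold of 0.32, and it was smaller than the change over all arrays for 32. Zkscan1, with 1.04 on the slide, Zfp575, with 0.85, and Zfp760, with 0.65, were among those at which it was not much reduced. With the slide as a fixed block, in which only this slide informs the genotype, Zbtb45, Zfp644, Zfp575, Zkscan1 and Zfp760 still passed the unadjusted thresholds.

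In the lower block the median on the shared slide was -0.26, against -1.15 over all arrays. The rest of the lower block had a median of -0.43 on that slide, against -1.07 over all arrays. Among the members the difference on the slide was -1.47 for Zfp26, -0.92 for Zfp213 and -0.72 for Zbtb17, close to their changes over all arrays. It was -0.26 for Zfp467, -0.21 for Zfp60, -0.12 for Zfp454 and 0.06 for Zfp365. The lower block thus divided into 3 genes that were as low on the shared slide and 4 whose difference came mainly from the other slides, and the part played by the slide in the latter was not tested. With 1 mouse of each genotype on that slide these values have no replicate.

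**Figure D4:**
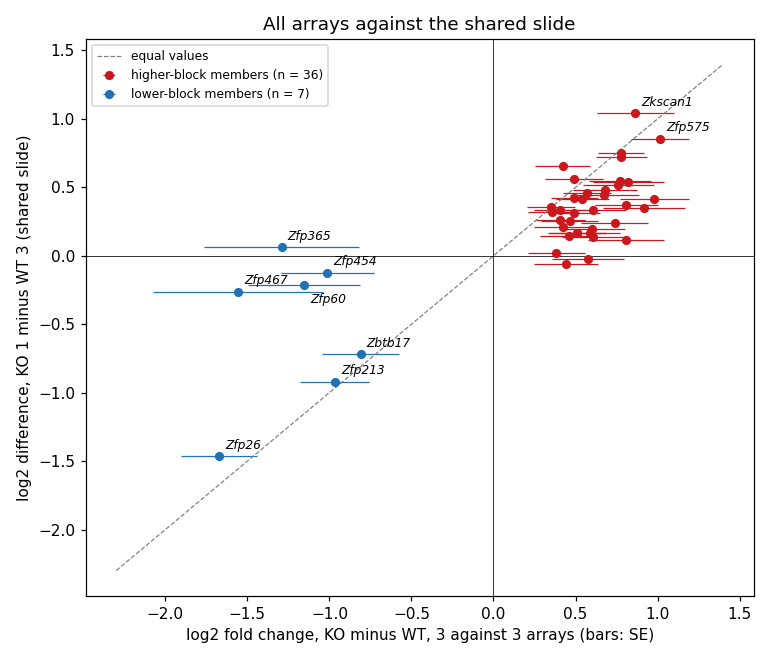
Log2 fold change over all 6 arrays with its SE (x axis) against the log2 difference of KO 1 and WT 3 on the slide that held both (y axis), for the 36 higher-block and 7 lower-block probes. Most points lie nearer to 0 than the dashed line of equal values, and Zfp26, Zfp213 and Zbtb17 lie close to it.

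Of 24 genes for co-repressors and other partners of KRAB and BTB proteins, the table named 2. Atrx, a chromatin remodeller at heterochromatin, measured 5.72, 6.20 and 6.30 in the knockouts and 5.58, 5.62 and 5.63 in wild type, a log2 fold change of 0.46 ± 0.19 and a difference of 0.09 on the shared slide. Ncor1, the nuclear receptor co-repressor that BTB proteins recruit, measured 0.53, 0.25 and 0.41 against 1.48, 1.65 and 1.79, a log2 fold change of -1.25 ± 0.16. Ncor1 was as low on the shared slide, at -1.26, and its groups were far apart. Both genes come from the same table, so these too are a description, and the other 22 genes were not named in it.

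The table also named 16 probes of 15 genes that are described as zinc-finger genes but whose symbols the rule does not match. Of these, 14 were tested as higher, all 14 with every knockout array above every wild type array, beside 12.4% of all probes, and 12 of 14 past the unadjusted thresholds, beside 9.26%, and their log2 fold changes had a median of 0.52. These counts too follow from how the table was chosen. Zgpat, a zinc-finger repressor of transcription, was the one listed lower, at -1.61 ± 0.33. Zcwpw1 was not tested, as it was well above background on only 2 arrays.

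The 3 named markers of cell types in this tissue were higher as well. The neuronal Snap25 had a log2 fold change of 0.55, the astrocytic Slc1a2 of 0.48 and the glial Fabp7 of 0.88, all in the higher block of the same table. On none of them did the groups overlap, as on 1386 of the 1444 higher-block probes outside the members and 12.4% of all probes. Snap25 ranged from 5.30 to 5.99 in the knockouts and from 4.97 to 5.15 in wild type. Slc1a2 ranged from 5.16 to 5.61 in the knockouts and from 4.79 to 5.11 in wild type, and Fabp7 from 3.58 to 4.42 in the knockouts and from 2.89 to 3.47 in wild type. The other 21 markers were not named, and their part in the values of the members was not tested.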

How the data were processed

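Scanner files that the authors made with Agilent Feature Extraction 11.0.1.1 (mm9 design) were deposited for all 6 arrays. The processed signal in these deposited files is an intensity from which the authors' software had subtracted the background, not scaled between arrays. A second deposited table holds the authors' own normalized log2 values; how they were normalized is not given in the sources used here, and the table served as an alternative. Per the labels the authors' processing used limma. Symbols came from the study's supplementary table and served as annotation only; its 266 lower-block entries were each matched to 1 probe by their raw values. RefSeq (GRCm38.p6) matched all 42 symbols, and no coordinate was carried between builds.

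Spots for controls and spots marked as outliers were dropped. Log2 signals were averaged per probe and centred on each array's 75th percentile. Probes needed a signal well above background on 3 or more of the 6 arrays, and the 48436 that qualified were fitted with lmFit and eBayes of limma 3.58.1 (R 4.3.3, statmod 1.5.0), with prior degrees of freedom of 3.19 and Benjamini-Hochberg adjustment over all of them. Calls needed p under 0.05, unadjusted or adjusted, with at least a 1.25-fold change. Tested on simulated data of 48436 probes, this fit recovered 92 of 100 changes of 1 log2 unit and 97 of 100 of 2 units at unadjusted p. The simulated arrays were independent and had no slide effect, and the planted changes were larger than the higher-block median of 0.58. These counts check that the fit runs and do not give its power for the members. Tables and figures were made with pandas 2.3.3 and matplotlib 3.10.9. Array values were given for the lower-block members, the 8 largest and 3 smallest differences of the higher block, both probes of a gene, members with opposite signs on the shared slide and members on chromosome 17. Alternatives changed the scaling, background correction, filter, floor, test and blocks, and left out each array in turn. The members and lists were chosen with earlier results of these data known.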

Additional observations from a re-analysis of the deposited data

How the results depend on the processing

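Of the 19 alternatives, 6 leave the estimates of single members as they are, and under the other 13, 556 of 559 values kept their direction. The exceptions were Zfp770 (-0.058), Zfp248 (-0.022) and Zfp365 (0.062), all with the slide as a fixed block, where only KO 1 and WT 3 inform the genotype. With that block the count of higher-block members past the unadjusted thresholds was 5 (3.65% of all probes) and that of lower-block members 2 (2.28%), with medians of 0.34 and -0.26. Without scaling between arrays the higher-block count was 9 (2.52% of all probes) and the median 0.29, where the median of all probes shifted by -0.29. With normexp background correction, an offset of 50 and quantile scaling, the medians were 0.38 and -0.80. In that fit 15 members were over 1.5 times nearer to 0, led by Zbtb45 (0.21), Zfp964 (0.17) and Zkscan1 (0.28). The lower-block count was 4 by a Student's t-test (3.75% of all probes called as lower). It was also 4 with only probes above background on all arrays (7.72%), a filter that leaves 4 of the 7. With trend and robust variances 1 member, Zfp26, passed the adjusted threshold. The share of all probes past that threshold in this fit is not given, so nothing is read from it.

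Leaving out each array in turn, the higher-block count ranged from 17 (without WT 1) to 32 (without KO 1), with 19 without WT 2, and the lower-block count from 5 to 7. Over these fits the share of all probes called as higher ranged from 5.2% (without WT 1) to 13.7% (without KO 1). The share called as lower ranged from 3.09% to 13.2% between the same 2 fits. The medians ranged from 0.49 to 0.67 and from -1.56 (without KO 1) to -0.97. The count past the adjusted threshold ranged from 0 to 9, and all 9 were without KO 1 (Zbtb45, Zfp575, Zfp286, Zbtbd6, Zfp365, Zfp213, Zfp60, Zfp467 and Zfp26). That fit called 13.7% of all probes as higher and 13.2% as lower at the unadjusted thresholds, against 9.26% and 7.03% with all arrays. Its share of all probes past the adjusted threshold is not given, so the 9 are not read as a result about the members. The causes were not tested.

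The replicate numbers did not pair the samples, as the correlations of deviations of same-numbered arrays were -0.31, 0.10 and -0.31. With the replicate number as a block, 25 higher-block and 7 lower-block members passed the unadjusted thresholds, beside 7.31% and 5.51% of all probes, and 0 the adjusted one. With the slide as a random block (correlation 0.26) the counts were 26 and 6, beside 6.97% and 4.57% of all probes.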
